A study of Mus musculus with 12 samples.

Results

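The genes described here encode the core of the Nodal signalling pathway that acts at or outside the cell surface. They are the antagonists Lefty1 and Lefty2, the ligands Nodal and Gdf3, the co-receptor Tdgf1 (Cripto), the type I receptor Acvr1b (ALK4), the type II receptors Acvr2a and Acvr2b, and the proprotein convertases Furin and Pcsk6 (PACE4). They were taken by symbol from the deposited count tables, in which these 10 genes are 10 of 55416 listed gene IDs. All 10 passed the filter on low counts, which left 17702 genes for testing.

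Nodal is a secreted protein of the TGF-β family that is made as a precursor, and convertases such as Furin and Pcsk6 cut it into its active form. Mature Nodal binds a complex of type I and type II activin receptors together with the co-receptor Cripto, and the receptors phosphorylate Smad2 and Smad3, which act with Smad4 and Foxh1 in the nucleus. Lefty proteins are secreted antagonists that bind Nodal and its co-receptor, and their genes are themselves targets of the pathway, which makes a negative feedback loop. In mouse embryonic stem cells the pathway is active and is known for its part in the choice between staying pluripotent and forming mesoderm and endoderm. All 10 proteins carry a signal peptide, so their mRNAs are translated by ribosomes bound to the endoplasmic reticulum (ER).

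The 12 RNA-seq libraries come from mouse embryonic stem cells of the line E14Tg2a.4, in which the ribosomal protein Rpl31 carries a FLAG-TEV-AviTag (Rpl31-FTA), grown with serum and leukemia inhibitory factor. A proximity-labelling enzyme, ALIBi, was targeted to the ER to biotinylate ribosomes there, and the biotinylated ribosomes were affinity-purified. The 4 groups, with 3 libraries labelled as biological replicates in each, were RNA of the ER-labelled ribosomes (ER-bound RNA) from cells given Lsg1 siRNA, the same from cells given scramble siRNA, and whole-cell RNA from each of these cultures, Lsg1 and scramble. The whole-cell RNA was taken from the lysates used for purification, so all 4 groups carry the tagged Rpl31 and the ER-targeted ALIBi. Lsg1 is a GTPase that acts in the last cytoplasmic steps of 60S ribosomal subunit maturation, and scramble siRNA is the control. The labels do not say how the replicate cultures were kept apart or whether the tagged line is a single clone, so p-values measure the spread between these libraries.

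The coding starts of Nodal and Acvr2b are shown because they are where each nascent protein begins, with the part that encodes its signal peptide, and because these genes lie far apart in the comparison of fractions. Both are the first 90 bases of the coding sequence from GENCODE M21 transcripts on GRCm38, an older build than the GRCm39 of the counts. Nodal had the higher ER-bound over whole-cell fold of both ligands, and Acvr2b had the lowest fold of the 10 genes. The capitals mark the start codon.
Nodal: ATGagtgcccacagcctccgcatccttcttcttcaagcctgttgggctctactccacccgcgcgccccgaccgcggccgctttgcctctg
Acvr2b: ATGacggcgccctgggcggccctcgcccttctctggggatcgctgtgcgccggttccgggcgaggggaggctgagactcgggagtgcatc

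Lefty2 lies at chr1:180893108-180899103 and Lefty1 at chr1:180935022-180938400, both on the plus strand of GRCm38 and 35.9 kb apart. Their coding sequences are each 1104 bases long and 91.8% identical. Of the 50-base windows along the transcripts, 281 are shared, which is 17.9% of the windows of Lefty1 and 11.6% of those of Lefty2, but 0 windows of 150 bases, the length of 1 sequenced read, are shared. Nodal lies at chr10:61417972-61425338 on the plus strand, Gdf3 at chr6:122605403-122610087 on the minus strand and Tdgf1 at chr9:110939603-110946158 on the minus strand. Tdgf1 shares 12.5% of its 50-base windows with the pseudogene Tdgf1-ps1, which held 34371 reads over all libraries against 1069385 for Tdgf1, so a small part of the Tdgf1 reads is uncertain. Annotated genes on the opposite strand overlap Acvr2a (Orc4), Acvr2b (Gm47320), Furin (Gm44851) and Pcsk6 (Gm20684), and Gm45213 overlaps Pcsk6 on its own strand. The strand setting of the counting is not given in the sources used here, so reads of these partners cannot be told apart.

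Gene-assigned reads numbered 38092178 to 56522114 per library. Lsg1, the target of the siRNA, stood at 35.4, 42.5 and 52.5 CPM (reads of a gene scaled to the TMM-adjusted library size) in ER-bound RNA with Lsg1 siRNA, against 142.5, 149 and 151 CPM with scramble siRNA. Its whole-cell values were 83.5, 96.7 and 114 CPM with Lsg1 siRNA, against 136, 144 and 149 CPM with scramble siRNA. In both fractions every library with Lsg1 siRNA was lower, and edgeR's quasi-likelihood test passed Lsg1 in ER-bound RNA (adjusted p = 6.3e-08) and not in whole-cell RNA (adjusted p = 0.245). As a check of the ER fraction, 10 of 10 ER chaperone genes were higher in ER-bound than in whole-cell RNA with either siRNA. Over all tested genes 29.8% were called higher with scramble siRNA and 30.6% with Lsg1 siRNA. With either siRNA 13 of 13 mitochondrially encoded mRNAs were lower, beside 29.1% (scramble) and 29.8% (Lsg1) of all tested genes. These mRNAs are translated by ribosomes inside mitochondria, so they cannot tell ER-labelled from other cytosolic ribosomes. One gene with no symbol, ENSMUSG00000119584.1, set 2 libraries apart: it stood at 15604 CPM in replicate 3 of whole-cell Lsg1 and at 18469 CPM in replicate 3 of ER-bound scramble, against 1115 to 4143 CPM in the other 10 libraries. Without both of these libraries the numbers of pathway genes called were the same in all 5 comparisons, 9, 10, 0, 2 and 0 in the order given below. All 10 markers of embryonic stem cells were detected. Of 12 fibroblast or feeder markers, 7 passed the filter on low counts, while Lum had 0 reads and Dcn had 5 reads over all 12 libraries. The 12 markers summed to between 28.3 and 31.6 CPM in whole-cell libraries and between 49.5 and 60.6 CPM in ER-bound libraries.

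Per length of the longest annotated transcript, Tdgf1 was by far the most abundant of the pathway's mRNAs, at 1431 ± 93.5 CPM per kb with Lsg1 siRNA and 1289 ± 83.6 CPM per kb with scramble siRNA in ER-bound RNA (SD, n = 3 each). Its whole-cell levels were 660.2 ± 26.4 CPM per kb with Lsg1 siRNA and 647 ± 17.1 CPM per kb with scramble siRNA. In whole-cell RNA with scramble siRNA the order below Tdgf1 was Gdf3 (44.6 CPM per kb), Nodal (33.1), Lefty1 (27.5), Lefty2 (19.3), Pcsk6 (14.7), Acvr1b (12.4), Acvr2b (7.27), Furin (4.23) and Acvr2a (2.43). No library ranges of neighbours in that order overlapped, and the order was the same in whole-cell RNA with Lsg1 siRNA. The ligands and antagonists thus stood above the convertases and receptors in whole-cell RNA, and Acvr2b was the more abundant of the type II receptors.

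In ER-bound RNA with scramble siRNA the order was the same as in whole-cell RNA, but some neighbours overlapped. Gdf3 (75.9 ± 2.11 CPM per kb) and Nodal (72.1 ± 2.54) overlapped, as did Acvr2b (7.58 ± 0.357) and Furin (7.24 ± 0.411), while Lefty1 (67.7 ± 2.02) stood above Lefty2 (62.7 ± 2.71). With Lsg1 siRNA, Nodal stood above Gdf3 and Lefty2 above Lefty1, but the libraries of both pairs overlapped. Lefty2 (54.3 ± 2.68 CPM per kb) was next to Lefty1 (51.7 ± 2.26), and Nodal (76.5 ± 3.07) to Gdf3 (73.1 ± 1.71), and Acvr2b and Furin overlapped as well. The pair of type II receptors differed in both groups, since Acvr2a stood at 3.17 ± 0.151 CPM per kb with Lsg1 siRNA and 3.18 ± 0.306 CPM per kb with scramble siRNA.

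**Figure D1:**
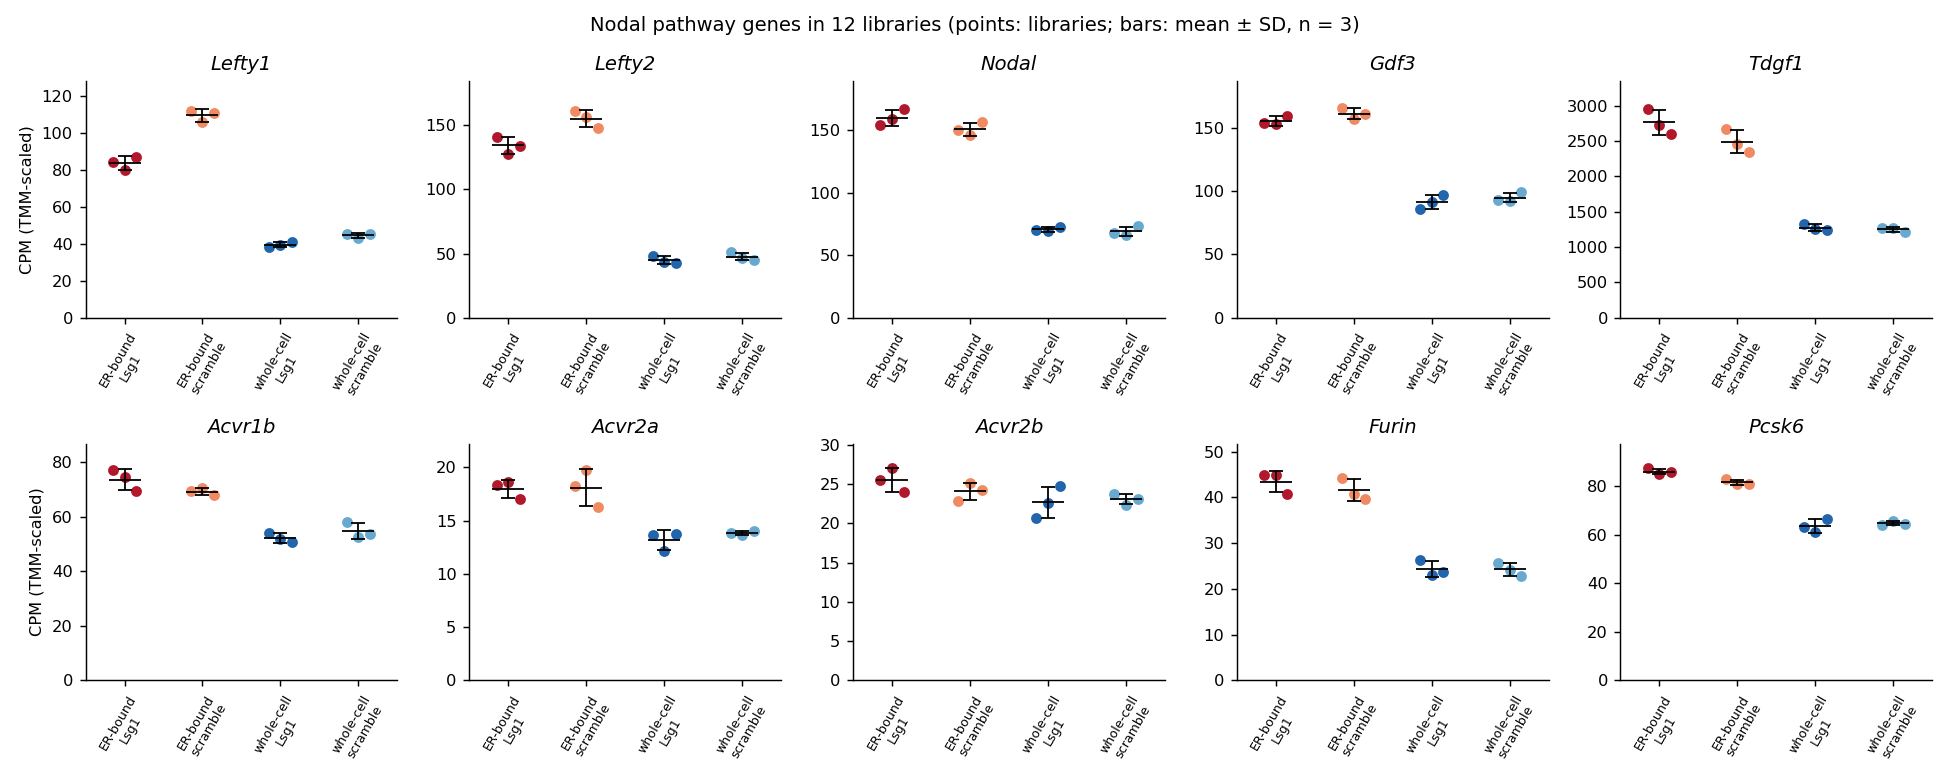
CPM (TMM-scaled, y axes from 0) of each pathway gene in the 12 libraries, with 1 panel per gene; points are libraries and bars are the mean ± SD of 3 replicates. In 9 of the 10 panels the ER-bound libraries stand clear above the whole-cell libraries of their siRNA, Acvr2b being the exception, and in the panels of Lefty1 and Lefty2 the ER-bound libraries with Lsg1 siRNA stand below those with scramble siRNA.

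The first question was which of the pathway's mRNAs were enriched on ribosomes labelled at the ER, in cells given scramble siRNA. The antagonists stood out most, with Lefty2 at 3.25-fold and Lefty1 at 2.46-fold the whole-cell level, followed by Nodal at 2.18-fold and the co-receptor Tdgf1 at 1.99-fold. The receptors and Pcsk6 were between 1.04-fold and 1.31-fold. At a Benjamini-Hochberg adjusted p under 0.05 in edgeR, 9 of the 10 genes were higher in ER-bound RNA and 0 were lower, where 29.8% of all tested genes were called higher, 29.1% lower and 58.9% in either direction. The median log2 fold of the 10 genes was 0.77, and that of all tested genes was 0.03. In these 9 genes the ER-bound libraries lay wholly above the whole-cell libraries, and 63.9% of all tested genes had groups that did not overlap in one direction or the other. RNA from ribosomes of the whole cell was not analysed here, so more ribosomes at the ER and more ribosomes on an mRNA anywhere cannot be told apart. In such bulk samples, fewer cells that express a gene and less of its RNA per cell cannot be told apart either. With library totals in place of TMM scaling the median log2 fold of all genes moved to 0.11 with either siRNA, and the share of calls that were higher was 60.8% with scramble siRNA and 61.7% with Lsg1 siRNA, against 50.7% with TMM in both.

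Among the antagonists, Lefty2 stood at 161, 157 and 148 CPM in ER-bound RNA against 51.0, 46.7 and 45.3 CPM in whole-cell RNA, both with scramble siRNA. Its lowest ER-bound library was well above its highest whole-cell library, and edgeR gave a log2 fold of 1.70 with an SE of 0.05 (adjusted p = 4.4e-14). Only 0.141% of tested genes had a higher log2 fold in this comparison, which put Lefty2 in place 26 of 17702. Lefty1 stood at 112, 106 and 111 CPM in ER-bound RNA against 45.4, 43.0 and 45.4 CPM in whole-cell RNA (log2 fold 1.30, SE 0.04, edgeR adjusted p = 3.6e-14). Both antagonists were thus clear of their whole-cell levels in every library, Lefty2 by more than Lefty1.

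Of the ligands, Nodal stood at 150.4, 146 and 157 CPM in ER-bound RNA against 68.0, 66.5 and 73.2 CPM in whole-cell RNA with scramble siRNA (log2 fold 1.12, SE 0.04, edgeR adjusted p = 2.9e-13). Gdf3, a ligand that can also signal through Cripto, stood at 166, 157 and 161 CPM against 93.3, 92.2 and 99.1 CPM (log2 fold 0.76, SE 0.04, edgeR adjusted p = 2.4e-11). The ER-bound libraries of both ligands lay above all whole-cell libraries. Tdgf1, the membrane-anchored co-receptor, stood at 2666, 2457 and 2349 CPM in ER-bound RNA against 1266, 1272 and 1212 CPM in whole-cell RNA (log2 fold 0.99, SE 0.05, edgeR adjusted p = 3.3e-12).

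The convertases differed in the size of their fold. Furin, which works in the trans-Golgi network and at the cell surface, stood at 44.2, 40.7 and 39.7 CPM in ER-bound RNA against 25.8, 24.2 and 22.9 CPM in whole-cell RNA (log2 fold 0.78, SE 0.06, edgeR adjusted p = 2.0e-09). Pcsk6, a secreted convertase, stood at 82.8, 81.1 and 81.0 CPM against 64.0, 65.7 and 64.6 CPM (log2 fold 0.33, SE 0.03, edgeR adjusted p = 1.4e-07). Both were clear of their whole-cell libraries, Pcsk6 with the smaller fold and the closer replicates.

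The receptors had log2 folds between 0.06 and 0.39, a range that also held Pcsk6. Acvr1b, the type I receptor for Nodal, stood at 69.6, 70.5 and 67.9 CPM in ER-bound RNA against 58.3, 52.7 and 53.7 CPM in whole-cell RNA (log2 fold 0.34, SE 0.04, edgeR adjusted p = 2.9e-06). Acvr2a stood at 18.3, 19.7 and 16.3 CPM against 13.9, 13.6 and 14.0 CPM (log2 fold 0.39, SE 0.07, edgeR adjusted p = 8.1e-05). When GC content and length were corrected for by an offset, the log2 fold of Acvr2a, whose transcript has the lowest GC content of the 10 at 39.9%, was 0.79 with scramble siRNA and 0.85 with Lsg1 siRNA. Acvr2b stood at 22.9, 25.1 and 24.2 CPM in ER-bound RNA against 23.7, 22.4 and 23.1 CPM in whole-cell RNA, so the groups overlapped, and its log2 fold of 0.06 did not pass (SE 0.06, edgeR adjusted p = 0.407). Its fold was -0.10 with the offset for GC content and length (edgeR adjusted p = 0.134), and it passed with library totals at 0.14 (edgeR adjusted p = 0.0456); over all 22 other settings adjusted p ran between 0.0456 and 0.893.

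In the cells with Lsg1 siRNA, 10 of the 10 genes were higher in ER-bound than in whole-cell RNA by the same test, where 30.6% of all tested genes were called higher, 29.8% lower and 60.3% in either direction. The median log2 fold was 0.80, against 0.02 for all tested genes. Lefty2 was again first, at 141, 128 and 134 CPM in ER-bound RNA against 48.3, 43.7 and 42.6 CPM in whole-cell RNA (log2 fold 1.58, SE 0.05, edgeR adjusted p = 7.6e-14). Nodal (1.18) and Tdgf1 (1.12) came next, ahead of Lefty1 at 1.08 (SE 0.04, edgeR adjusted p = 2.3e-13), and Furin (0.84), Gdf3 (0.76), Acvr1b (0.49), Acvr2a (0.45) and Pcsk6 (0.44) followed. In these 9 genes the ER-bound libraries with Lsg1 siRNA all lay above the whole-cell ones, while 64.4% of all tested genes had groups apart. Acvr2b stood at 25.5, 27.1 and 24.0 CPM in ER-bound RNA against 20.7, 22.5 and 24.7 CPM in whole-cell RNA, which overlap, and passed edgeR's test with 0.17 on the log2 scale (SE 0.06, adjusted p = 0.0189). That call was lost with DESeq2 (adjusted p = 0.052), with the GC and length offset (0.01, edgeR adjusted p = 0.94), and without whole-cell Lsg1 replicate 1 (0.09, edgeR adjusted p = 0.209), whole-cell Lsg1 replicate 2 (edgeR adjusted p = 0.071), ER-bound Lsg1 replicate 2 (edgeR adjusted p = 0.126), whole-cell scramble replicate 1 (edgeR adjusted p = 0.0513) or whole-cell scramble replicate 3 (edgeR adjusted p = 0.0518). Over all 22 other settings its adjusted p ran between 0.000675 and 0.94.

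**Figure D2:**
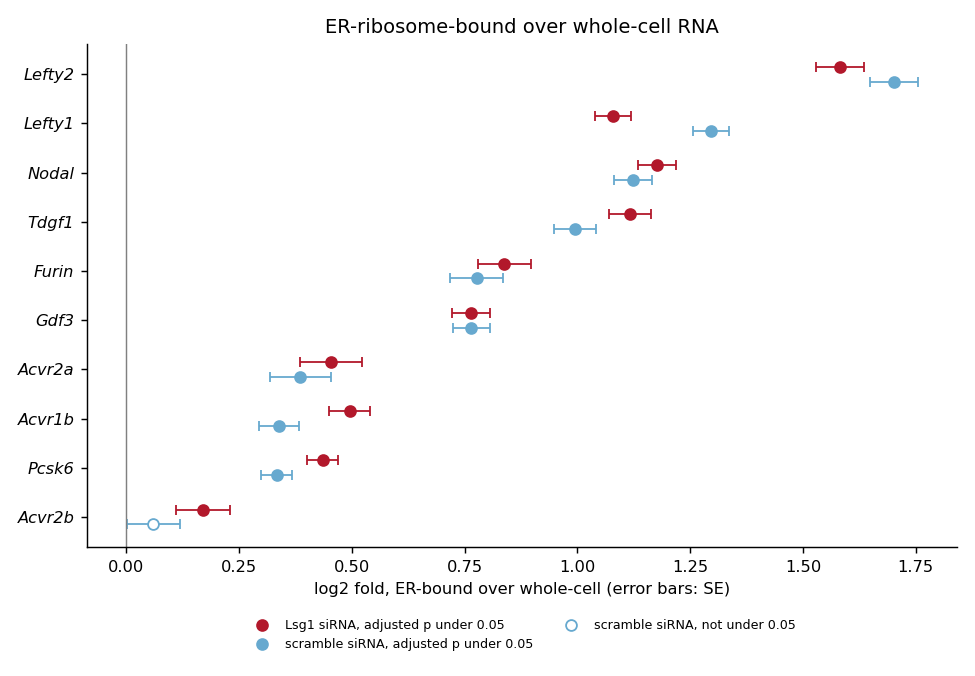
Log2 fold of ER-bound over whole-cell RNA (x axis, error bars are SE from the edgeR fit) of each pathway gene, with Lsg1 siRNA in red above scramble siRNA in blue; filled points had an adjusted p under 0.05. Lefty2 has the highest fold with either siRNA, 1.58 with Lsg1 siRNA and 1.70 with scramble siRNA, and the open point is Acvr2b with scramble siRNA at 0.06.

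What the Lsg1 siRNA changed on the ER-labelled ribosomes was read from the ER-bound libraries. Both Lefty mRNAs fell: Lefty1 to 76.5% and Lefty2 to 86.6% of the scramble level. In the edgeR fit of all 12 libraries with the filter on low counts, none of the other 8 genes passed. Their log2 folds lay between -0.05 (Gdf3) and 0.15 (Tdgf1). Tdgf1 was called higher without a replicate block in DESeq2, with no filter on low counts and without ER-bound scramble replicate 1. By edgeR's quasi-likelihood test 2 of the 10 genes were lower and 0 higher, where 1.38% of all tested genes were called lower, 2.63% higher and 4.01% in either direction. With the replicate number as a block, fitted on only the groups compared, 2 of the 10 were lower and 1 higher. That fit called 1178 genes over all, against 375 in those groups without the block and 710 in the fit of all 12 libraries. In the latter fit the median log2 fold of the 10 genes was 0.07, and that of all tested genes 0.01. The groups did not overlap in 3 of the 10 genes, Lefty1, Lefty2 and Pcsk6, and in 21.5% of all tested genes.

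Lefty1 stood at 84.5, 79.8 and 87.0 CPM in ER-bound RNA with Lsg1 siRNA against 112, 106 and 111 CPM with scramble siRNA. The highest library with Lsg1 siRNA was well below the lowest with scramble siRNA, and edgeR gave a log2 fold of -0.39 with an SE of 0.04 (adjusted p = 2.6e-05). It was lower in 3 of 3 same-numbered pairs, with log2 ratios of -0.41, -0.41 and -0.35. Under all 22 other settings it remained past the threshold, with folds between -0.43 and -0.36 and edgeR, limma or DESeq2 adjusted p between 6.4e-17 and 0.00127.

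Lefty2 stood at 141, 128 and 134 CPM with Lsg1 siRNA against 161, 157 and 148 CPM with scramble siRNA. The groups did not overlap, and edgeR gave a log2 fold of -0.21 with an SE of 0.05 (adjusted p = 0.027). That call was lost with library totals (edgeR adjusted p = 0.0508) and without ER-bound scramble replicate 2 (edgeR adjusted p = 0.0767), ER-bound Lsg1 replicate 2 (edgeR adjusted p = 0.131) or ER-bound Lsg1 replicate 3 (edgeR adjusted p = 0.056), with folds between -0.22 and -0.18. Over all 22 other settings its adjusted p ran between 2.6e-05 and 0.131. It was lower in 3 of 3 same-numbered pairs.

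Tdgf1 stood at 2959, 2735 and 2601 CPM in ER-bound RNA with Lsg1 siRNA against 2666, 2457 and 2349 CPM with scramble siRNA. The groups overlapped, and the log2 fold of 0.15 did not pass (SE 0.05, edgeR adjusted p = 0.0737). It was higher with Lsg1 siRNA in 3 of 3 same-numbered pairs, each with a log2 ratio of 0.15. With the replicate number as a block, edgeR called Tdgf1 higher at 0.14 (SE 0.02, adjusted p = 0.000545), and DESeq2 (adjusted p = 0.0368), no filter on low counts (edgeR adjusted p = 0.00944) and leaving out ER-bound scramble replicate 1 (0.19, edgeR adjusted p = 0.00663) also called it. Its adjusted p ran up to 0.371 over the other settings.

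The other genes differed less. Nodal stood at 155, 159 and 167 CPM with Lsg1 siRNA against 150.4, 146 and 157 CPM with scramble siRNA, which overlap (log2 fold 0.09, SE 0.04, edgeR adjusted p = 0.289). Pcsk6 stood at 87.3, 84.9 and 86.0 CPM against 82.8, 81.1 and 81.0 CPM; the groups did not overlap, but the log2 fold of 0.08 did not pass (SE 0.03, edgeR adjusted p = 0.257). For Acvr1b, Acvr2b, Furin, Acvr2a and Gdf3 the groups overlapped, with log2 folds of 0.09, 0.09, 0.06, -0.01 and -0.05.

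Some markers of embryonic stem cells were lower with Lsg1 siRNA in the same ER-bound libraries. Nanog (log2 fold -0.18, edgeR adjusted p = 0.0298), Dppa5a (-0.11, edgeR adjusted p = 0.0361) and Tfcp2l1 (-0.20, edgeR adjusted p = 0.0318) were lower, 3 of 10 markers, and 0 were higher. Over all tested genes 1.38% were called lower and 2.63% higher. The summed level of the 10 markers ran from 8109 to 8359 CPM with Lsg1 siRNA and from 8546 to 8969 CPM with scramble siRNA. The 3 calls became 0 with library totals and 1 without ER-bound Lsg1 replicate 2, 0 without ER-bound Lsg1 replicate 3, 0 without ER-bound scramble replicate 2 and 5 with the replicate block. Primed epiblast or mesendoderm markers summed to between 285 and 310 CPM with Lsg1 siRNA and between 290.5 and 316 CPM with scramble siRNA, over 12 genes. Primitive endoderm markers summed to between 464 and 483 CPM and between 450.2 and 468 CPM, and fibroblast or feeder markers to between 54.1 and 60.6 CPM and between 49.5 and 57.6 CPM, with 0 called in either list; 1 fibroblast or feeder marker was called higher with the replicate block or without ER-bound scramble replicate 1. For the interaction of fraction and siRNA 0 of the 10 embryonic stem cell markers passed. In whole-cell RNA 0 of these 10 were called between the siRNAs, where 0% of all tested genes were called. Their summed whole-cell level ran from 7332 to 7413 CPM with Lsg1 siRNA and from 7422 to 7473 CPM with scramble siRNA. The part of these markers in the lower Lefty values was not tested.

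In whole-cell RNA, which shows transcript levels, 0 of the 10 genes passed between Lsg1 and scramble siRNA without a replicate block, and 0% of all tested genes were called by edgeR. With the block, fitted on only the groups compared, edgeR called 22 genes over all and 1 of the 10, Lefty1. Without the block edgeR called 2 genes over all and 0 of the 10 in those groups. In the fit of all 12 libraries edgeR had 731 genes at an unadjusted p under 0.05, of which 1 was a pathway gene, Lefty1. DESeq2 called 3 genes over all and 0 of the 10. Lefty1 stood at 38.5, 39.6 and 40.8 CPM with Lsg1 siRNA against 45.4, 43.0 and 45.4 CPM with scramble siRNA. These groups did not overlap, as in 10.4% of all tested genes, and edgeR gave a log2 fold of -0.17 with an SE of 0.04 (adjusted p = 0.736). It was lower in 3 of 3 same-numbered pairs, with log2 ratios of -0.24, -0.12 and -0.15, and with the replicate block its log2 fold was -0.17 with an adjusted p of 0.0431 in edgeR; over all 22 other settings adjusted p ran between 0.0431 and 1.00. Lefty2 stood at 48.3, 43.7 and 42.6 CPM with Lsg1 siRNA against 51.0, 46.7 and 45.3 CPM with scramble siRNA, with overlapping groups (log2 fold -0.09, SE 0.06, edgeR adjusted p = 1.00). The other 8 genes had log2 folds between -0.08 (Acvr2a) and 0.03 (Nodal), each with overlapping groups. The whole-cell and ER-bound comparisons come from the same lysates, and the difference between them was tested next.

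**Figure D3:**
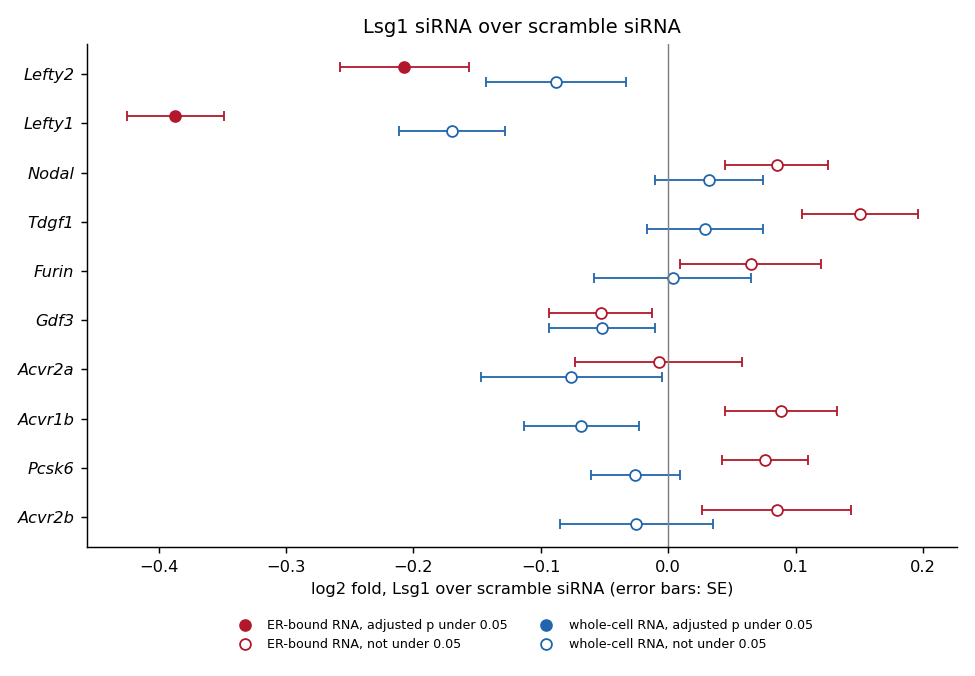
Log2 fold of Lsg1 over scramble siRNA (x axis, error bars are SE from the edgeR fit) of each pathway gene, in ER-bound RNA (red, upper) and whole-cell RNA (blue, lower); filled points had an adjusted p under 0.05. The filled points are Lefty1 at -0.39 and Lefty2 at -0.21, both in ER-bound RNA, and every whole-cell point is open in this fit, which has no replicate block.

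Whether the fraction difference depended on the siRNA was tested by the interaction, which is the ER-bound over whole-cell log2 fold with Lsg1 siRNA minus that with scramble siRNA. By edgeR 0 of the 10 genes passed, and 0.0226% of all tested genes did, 0.0113% with a higher and 0.0113% with a lower value. Lsg1 itself passed, with an interaction of -1.22 (SE 0.15, edgeR adjusted p = 0.0013). With Lsg1 siRNA it stood at 29.4% of the scramble level in ER-bound RNA and at 68.5% in whole-cell RNA. With the replicate block 0 of the 10 and 10 genes over all passed, in place of 4. At an unadjusted p under 0.05 there were 2 pathway genes by edgeR, 2 by DESeq2 and 3 by limma-voom, and 0 of them passed any adjusted threshold. Lefty1 had an interaction of -0.22 (SE 0.06, edgeR adjusted p = 0.426) and Acvr1b one of 0.16 (SE 0.06, edgeR adjusted p = 0.654). Lefty2 (-0.12), Tdgf1 (0.12), Acvr2b (0.11) and Pcsk6 (0.10) followed, and the other 4 lay between -0.00082 (Gdf3) and 0.07 (Acvr2a). The changes of Lefty1 and Lefty2 with Lsg1 siRNA were therefore not shown to differ between ER-bound and whole-cell RNA.

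The balance between the antagonists was taken as the Lefty1 reads per Lefty2 read in each library, a ratio that no scaling between libraries changes. It was 0.599, 0.624 and 0.650 in ER-bound RNA with Lsg1 siRNA, 0.697, 0.676 and 0.751 in ER-bound RNA with scramble siRNA, 0.796, 0.907 and 0.959 in whole-cell RNA with Lsg1 siRNA, and 0.889, 0.921 and 1.00 in whole-cell RNA with scramble siRNA. The ratio was lower in ER-bound than in whole-cell RNA with either siRNA, and lower in ER-bound RNA with Lsg1 than with scramble siRNA, with no overlap between groups. Each of these 3 comparisons gave a two-sided p of 0.10 by an exact unpaired permutation test, the smallest that 3 against 3 libraries allow. The whole-cell comparison of the siRNAs gave 0.50 by the same test. No outcome of this test could pass 0.05, so it cannot decide whether the ratio differed in any of the 4 comparisons made.

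Other genes of the pathway and its family, in 7 lists by role, were set beside these 10. Their counts in ER-bound against whole-cell RNA can be read beside the 29.8% of all tested genes called higher and the 29.1% called lower with scramble siRNA, and 30.6% and 29.8% with Lsg1 siRNA. Of 6 tested other ligands, 3 were higher and 0 lower in the scramble cells: Tgfb1 (log2 fold 0.94), Tgfb3 (1.06) and Inhbb (0.31), the subunit of activin B. With Lsg1 siRNA 5 were higher and 0 lower. The list's median was 0.31 with scramble siRNA, against 0.03 for all genes.

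Of 12 tested extracellular antagonists and co-receptors other than the Lefty genes and Tdgf1, 11 were higher and 0 lower with scramble siRNA, with a median log2 fold of 0.81. They included Tmed10 (1.00), a cargo receptor of the secretory pathway, and Ncln (0.86) and Nomo1 (0.79), partners in an ER membrane complex known from zebrafish as a Nodal antagonist. These act inside the secretory pathway, unlike the name of the list. Hspa5, also in the list, is an ER chaperone counted in the check of the ER fraction as well. With Lsg1 siRNA 11 were higher and 1 lower. Of 8 tested other receptors of the family, 6 were higher and 1 lower with each siRNA. Acvr1 (0.66), Acvrl1 (0.85) and Tgfbr1 (0.45) were among the higher with scramble siRNA, and Tgfbr1 was at 0.80 with the GC and length offset. Of 7 other proprotein convertases 4 were higher with scramble siRNA and 5 with Lsg1 siRNA, with 0 lower in both. Pcsk7 (0.31) and Mbtps1 (0.26, or 0.52 with the GC and length offset) were among the higher with scramble siRNA.

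Of 8 intracellular transducers, 1 was higher and 6 were lower in ER-bound RNA with scramble siRNA, and 1 was higher and 4 lower with Lsg1 siRNA. The higher one was Foxh1, the DNA-binding partner of Smad2, with a log2 fold of 0.87 (edgeR adjusted p = 1.9e-10). The lower ones included Trim33, a ubiquitin ligase that binds Smad2 and Smad3, at -0.88, and Zfyve9, which brings Smad2 to the receptor, at -0.59. With the GC and length offset these folds were -0.42 and -0.30 with scramble siRNA. With library totals or with no filter on low counts 3 transducers were lower in place of 6.

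Of 13 intracellular inhibitors, 4 were higher and 6 lower with scramble siRNA, and 4 higher and 5 lower with Lsg1 siRNA. Tgif1, a nuclear co-repressor of Smads, was higher at 0.39, and Skil (SnoN), another co-repressor, was lower at -0.75, or -0.32 with the GC and length offset. Usp9x was lower at -1.85, or -1.12 with that offset; it is a deubiquitinase that removes ubiquitin from Smad4 and so acts for the pathway, unlike the name of the list. Of 9 tested known target genes other than the Lefty genes and Nodal, 3 were higher and 2 lower with each siRNA. Wnt3, a secreted ligand, was higher at 1.31 with scramble siRNA, and Smad7, an inhibitory Smad that is also in the list of inhibitors, at 0.44.

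Between Lsg1 and scramble siRNA in ER-bound RNA, 1 gene of the list of extracellular antagonists and co-receptors was higher and 0 were lower. This was Ncln, at 159 ± 2.23 CPM with Lsg1 siRNA and 141 ± 0.0860 CPM with scramble siRNA (SD, n = 3 each; log2 fold 0.17, edgeR adjusted p = 0.00427). It did not pass without ER-bound Lsg1 replicate 2. Of the ligands, receptors, convertases, transducers and inhibitors, 0 passed. With the replicate block 2 antagonists or co-receptors and 1 transducer were higher, and 0 of both lists were lower. In whole-cell RNA and for the interaction 0 genes of these lists passed in edgeR.

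**Figure D4:**
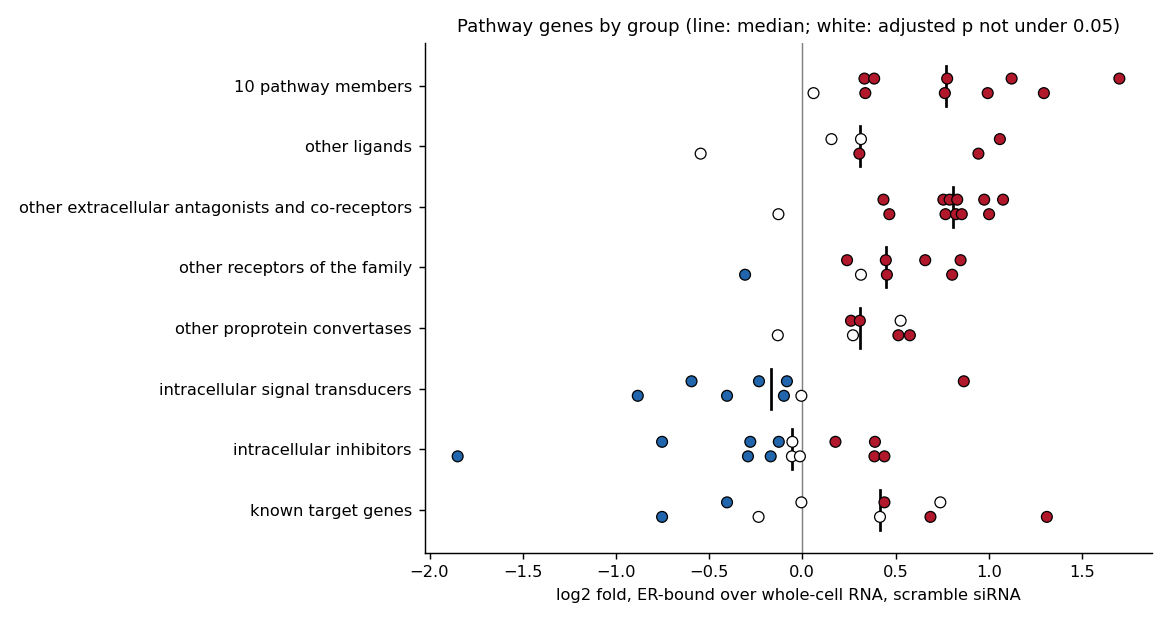
Log2 fold of ER-bound over whole-cell RNA with scramble siRNA (x axis) of the 10 pathway genes and of the tested genes of 7 other lists; points are genes, red for higher, blue for lower and white for not past an adjusted p of 0.05, and vertical lines are medians. The medians run from 0.81 for other extracellular antagonists and co-receptors to -0.17 for intracellular signal transducers, with 0.77 for the 10 pathway genes.

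For each gene, the genes with the most similar pattern were those with the highest Pearson r of log2 CPM over the 12 libraries, among 10634 named genes with a mean of at least 5 CPM. The libraries share a fraction and a siRNA within groups, and these values are a description only. For Lefty1 they were Trh, the precursor of thyrotropin-releasing hormone (r = 0.998), Snhg5 (0.994) and Avpi1 (0.991). Trh had a log2 fold of 1.38 between ER-bound and whole-cell RNA with scramble siRNA, and -0.35 between Lsg1 and scramble siRNA in ER-bound RNA, beside 1.30 and -0.39 for Lefty1. For Lefty2 they were the junctional adhesion molecule Jam2 (0.997), Timp2 (0.997) and Ildr1 (0.996). Nodal was most like Bscl2, the ER chaperone Dnajb11 and Mest (each 0.998), and Gdf3 like the ER chaperone Calr (0.997), Lman2l (0.997) and the ER chaperone Hspa5 (0.997).

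Tdgf1 was most like Tmem230 (0.999), Scarb1 (0.998) and Cnih4 (0.998), and Furin like Pgap2 (0.998), B2m (0.996) and Mettl21a (0.995). Pcsk6 was most like Tmco1, Tmed2 and Gjc1 (each 0.993), Acvr1b like Vkorc1l1 (0.991), Pigu (0.988) and Sgpl1 (0.987), and Acvr2a like Tmem143 (0.973), Msmo1 (0.970) and 1190002N15Rik (0.969). Acvr2b, which overlapped between the fractions, had the lowest values, with Cnot9 (0.895), Ift22 (0.893) and Slc25a10 (0.881).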

How the data were processed

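Per the labels' protocols, RNA from the affinity-purified ribosomes and from the lysates was poly-A selected (750 ng input, 9 PCR cycles, a directional kit) and sequenced as paired reads of 150 bases. The authors deposited raw counts per gene for each library. Per the submitters' processing notes, STAR 2.7.9a, HTSeq 0.11.2, GRCm39 and DESeq2 (version not given) were used; what strand setting and annotation release the counting used is not given in the sources used here. Summary lines (2.65% to 5.26% no feature, 6.09% to 8.23% not unique, 0.970% to 1.16% ambiguous) stayed out of library sizes. Of the IDs, 52135 (94.1%) matched a symbol by ID without version in GENCODE M21 (GRCm38).

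Counts were scaled by TMM, filtered with filterByExpr and tested with edgeR 4.0.16 in R 4.3.3 (quasi-likelihood F-test, 12 libraries, 1 mean per group, prior count 2, residual df 8, BCV 4.42%). P-values were adjusted by Benjamini-Hochberg over all tested genes, with a threshold of 0.05. CPM are TMM-scaled counts, given as mean ± SD. The tests were checked on simulated counts in which few genes were changed, as many up as down. That check does not cover the scaling where most genes differ, such as between the fractions. As alternatives, the fit was repeated with library totals or DESeq2 size factors, with no filter or a stricter one (2 CPM in 3 libraries), in DESeq2 1.42.0 and limma-voom (limma 3.58.1), on only the groups compared, with a replicate block, with an offset from splines (5 df) of GC content and length, which 99.7% of tested genes had, without 2 libraries together, and without each library in turn. Between the siRNAs the replicate block was fitted on only the groups compared. Alternatives for the lists and their genes were added after seeing the data. The fractions are paired by shared lysates; across the siRNAs, ER-bound libraries of 1 number had deviations from the group mean that correlated at 0.376, 0.125 and 0.322 over 10646 genes with at least 5 CPM (0.173, 0.00727 and 0.144 over all tested genes), which was taken as pairing. Whole-cell libraries come from the same lysates and so carry the same numbers. Their own correlations were 0.277, -0.00962 and 0.312 over those 10646 genes. Pairing across the siRNAs is therefore doubtful for replicate 2, and the results of the replicate block between the siRNAs rest on it.

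The 10 genes, the lists and the markers were chosen with earlier results of these data known. Named besides the 10 genes and Lsg1 were up to 3 called genes per list and comparison with the smallest p, called markers, and the 3 most similar genes of each of the 10. Python 3.11.15 and matplotlib 3.10.9 made the figures. A few results on single genes and 1 sequence are not reported here.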

Additional observations from a re-analysis of the deposited data

How the results depend on the processing

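Between fractions, Lefty1, Lefty2, Nodal, Gdf3, Tdgf1, Acvr1b, Acvr2a, Furin and Pcsk6 were called higher with either siRNA under all 22 other settings; Acvr2b was the exception, as given in the report, and its scramble fold reversed to -0.10 with the GC and length offset. Between the siRNAs in ER-bound RNA, 2 of the 10 genes were called, and library totals gave 1. No filter on low counts, DESeq2 and the replicate block each gave 3, with Tdgf1 higher. Leaving out each library gave 1 to 3. Over all genes that comparison called 710 in the fit of all 12 libraries. It called 375 with only the groups compared, 1178 with the replicate block in those same groups and 290 to 854 with each library left out. In whole-cell RNA the replicate block called 1 of the 10 genes, Lefty1 (-0.17, edgeR adjusted p = 0.0431, against 0.0431 to 1.00 over its 22 settings), and 22 over all. The count of 0 over all genes became 26 with no filter on low counts, 3 with DESeq2, 2 with only the groups compared, 1 with the GC and length offset, 4 without the 2 libraries high in ENSMUSG00000119584.1, and 0 to 3 with each library left out. For the interaction 4 became 59 with no filter, 20 with DESeq2, 10 with the replicate block and 3 to 8 with each library left out; only the groups compared could give no interaction. The block changed no call of the 10 genes other than Lefty1 in whole-cell RNA and Tdgf1 in ER-bound RNA. Folds near 0 that changed sign were, in whole-cell RNA, Furin (-0.0012 with library totals, -0.00027 with DESeq2, -0.057 to 0.046 with each library left out), and, with libraries left out, Nodal (-0.0039 to 0.080), Tdgf1 (-0.0072 to 0.044), Acvr2b (-0.096 to 0.026) and Pcsk6 (-0.066 to 0.0027). In ER-bound RNA Acvr2a ran from -0.091 to 0.046. For the interaction, Gdf3 was 0.00083 with DESeq2 size factors, 0.0097 with library totals, 0.0011 with DESeq2, 3.4e-05 with limma-voom, 0.00028 with the replicate block, 0.026 without the 2 libraries and -0.052 to 0.039 with each library left out, Nodal ran from -0.0068 to 0.080 and Acvr2a from -0.013 to 0.12. The cause of these changes was not tested. In the lists, the 5 higher other ligands and 5 higher other convertases with Lsg1 siRNA were 3 and 3 with the stricter filter, which tests fewer genes. The depth limits Acvr2a most, with 1777 to 2648 reads per group.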

Other observations

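The antagonists were also set against their ligand, as the summed reads of Lefty1 and Lefty2 per Nodal read in each library; longer transcripts give more reads, so only the change between libraries can be read. The value was 1.46, 1.31 and 1.32 in ER-bound RNA with Lsg1 siRNA against 1.81, 1.80 and 1.65 in ER-bound RNA with scramble siRNA. In whole-cell RNA it was 1.24, 1.20 and 1.14 with Lsg1 siRNA against 1.42, 1.35 and 1.24 with scramble siRNA. Within each fraction the values with Lsg1 siRNA were all lower than those with scramble siRNA, in whole-cell RNA by a margin in the third decimal. This ratio was computed after the values of the 3 genes were seen, and no test was run on it.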
